A study of Mus musculus with 11 samples.

Results

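Muscle calcium handling genes were followed over 3 postnatal ages in sorted mouse muscle cells. They comprise the cytosolic buffer Pvalb, the pumps Atp2a1 and Atp2a2, the pump regulator Sln, the channels Cacna1s and Ryr1, and the store proteins Casq1, Casq2 and Trdn. Members were all probe sets of the array annotated with exactly 1 of these symbols: 21 of 45101 probe sets, for 9 of 18193 genes. Pvalb, Atp2a1, Casq1, Casq2 and Cacna1s had 1 probe set each, Ryr1 and Sln had 2 each, and Atp2a2 and Trdn had 6 each.

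RNA came from muscle cells of Pax3GFP/+ mice on a C57BL/6J background, in which 1 Pax3 allele carries green fluorescent protein (GFP), and the sort gate was GFP in living cells. Many satellite cells of the trunk, the stem cells of skeletal muscle, express the transcription factor Pax3. The groups were postnatal day 1 (P1, n = 4 arrays) and day 12 (P12, n = 4), both of trunk muscle with satellite cells labelled as proliferating, and day 28 (P28, n = 3), of abdominal, pectoral and intercostal muscle with satellite cells. All groups carried the same reporter allele, and the labels do not say how many animals gave each array, so the tests measure the spread between arrays. P28 differs from the other ages in the muscles named and in the suffix of its internal sample names. Its satellite cells are also not labelled as proliferating. Age, muscles, labelled cell state and a possible batch therefore cannot be told apart there.

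When a muscle fibre is excited, the voltage sensor of the transverse tubule opens the release channel of the sarcoplasmic reticulum at a junction called the triad. Calcium leaves the store, where calsequestrin holds it, triggers contraction, is caught by soluble buffers in fast fibres and is pumped back by the SERCA pumps. Fast and slow fibres use different isoforms of several of these proteins, whereas satellite cells do not contract.

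The deposited values are log2 expression values from robust multi-array averaging (RMA), so a difference of 1 is a doubling. Array medians lay between 5.50 and 5.58. Probe sets for bacterial Trp genes, which have no target in mouse RNA and are called the Trp controls here, read 3.04 to 3.96. Arrays give no read depth, and their number limits the precision. The satellite cell markers read high at every age, with array means of the 10 genes of 9.34 to 9.88 at P1, 9.83 to 10.12 at P12 and 10.16 to 10.42 at P28. Pax7, a transcription factor of satellite cells, averaged 10.75, 10.78 and 10.72. Of the 10 genes, 3 rose from P1 to P12, 2 from P12 to P28 and 4 from P1 to P28, and 0 fell (limma, adjusted p under 0.05). From P12 to P28, 1 was lower at an unadjusted p under 0.05 (limma). Markers of contractile fibres and of other cell types were present as well and moved with age, as given below. The Gapdh 3′ minus 5′ difference, a sign of RNA degradation, was 2.17 ± 0.60 at P1, 2.10 ± 0.88 at P12 and 0.90 ± 0.10 at P28 (log2, SD). At P1 and P12 it was 2.59 to 3.05 in replicates 1 and 2, here called array set 1, and 1.32 to 1.69 in replicates 3 and 4, array set 2. On the P28 arrays it was 0.79 to 0.99, below every P1 and P12 array. Changes at P28 with this difference as a covariate are therefore extrapolated from the slope within ages.

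Promoters are shown for 4 members that were highest at P28 and, beside them, for 2 whose brightest probe set passed in no comparison: Ryr1, the partner of Cacna1s at the triad, and Casq2, the second calsequestrin. Each is the 250 bases before the RefSeq transcript start on GRCm38.p6, read 5′ to 3′ on the gene's strand, and capitals mark every CANNTG, the E-box bound by myogenic regulators, and every match to the MEF2 site on either strand. RefSeq entries at hand matched 6 of the 9 members: the windows are chr15:78206401-78206650 (minus strand) for Pvalb, chr7:126463074-126463323 (minus) for Atp2a1, chr1:172219896-172220145 (minus) for Casq1, chr1:136052561-136052810 (plus) for Cacna1s, chr7:29125152-29125401 (minus) for Ryr1 and chr3:102086165-102086414 (plus) for Casq2.
Pvalb: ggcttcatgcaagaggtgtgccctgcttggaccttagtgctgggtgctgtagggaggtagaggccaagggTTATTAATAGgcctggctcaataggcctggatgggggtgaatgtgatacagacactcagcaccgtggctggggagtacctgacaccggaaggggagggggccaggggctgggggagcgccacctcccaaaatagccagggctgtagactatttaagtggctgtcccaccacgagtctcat
Atp2a1: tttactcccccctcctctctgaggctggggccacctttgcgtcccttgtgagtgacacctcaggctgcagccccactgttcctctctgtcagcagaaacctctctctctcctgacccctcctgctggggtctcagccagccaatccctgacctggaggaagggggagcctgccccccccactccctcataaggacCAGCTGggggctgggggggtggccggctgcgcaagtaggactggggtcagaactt
Casq1: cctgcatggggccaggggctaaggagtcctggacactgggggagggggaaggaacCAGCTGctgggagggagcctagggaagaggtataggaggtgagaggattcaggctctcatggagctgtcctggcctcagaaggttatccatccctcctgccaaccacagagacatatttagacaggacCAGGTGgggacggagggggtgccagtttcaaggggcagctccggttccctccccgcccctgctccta
Cacna1s: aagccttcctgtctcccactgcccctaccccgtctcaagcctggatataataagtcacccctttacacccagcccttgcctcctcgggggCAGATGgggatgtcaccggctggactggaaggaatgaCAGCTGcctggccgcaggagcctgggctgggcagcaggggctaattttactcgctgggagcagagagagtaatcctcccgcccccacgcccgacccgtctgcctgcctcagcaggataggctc
Ryr1: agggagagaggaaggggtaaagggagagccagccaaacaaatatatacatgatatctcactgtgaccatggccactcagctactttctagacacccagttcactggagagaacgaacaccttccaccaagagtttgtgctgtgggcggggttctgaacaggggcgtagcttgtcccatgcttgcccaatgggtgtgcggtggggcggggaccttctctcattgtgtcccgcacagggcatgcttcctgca
Casq2: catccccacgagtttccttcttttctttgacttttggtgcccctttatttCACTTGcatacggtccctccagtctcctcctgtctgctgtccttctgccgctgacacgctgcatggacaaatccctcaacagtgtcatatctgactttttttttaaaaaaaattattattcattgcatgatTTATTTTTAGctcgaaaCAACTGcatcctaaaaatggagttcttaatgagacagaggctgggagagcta
The Pvalb window held 1 MEF2 match and 0 CANNTG, and the Casq2 window held 1 MEF2 match and 2 CANNTG. Casq1 and Cacna1s had 2 CANNTG each and Atp2a1 had 1, and in each of these 3 windows 1 of them was CAGCTG. Ryr1 had 0 of either. Over 32851 promoter windows of the same length, 66.2% held CANNTG, 13.0% held CAGCTG, which is one form of CANNTG, and 2.92% held the MEF2 site. A match describes letters in this window and is no evidence of binding. A second RefSeq start of Pvalb lies downstream, and its window (chr15:78204238-78204487, minus) held 1 CANNTG and 0 MEF2 matches. The motif content given for Pvalb therefore depends on the start used. Atp2a2, Sln and Trdn are named only.

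Taken by gene and by the brightest probe set, Pvalb, Atp2a1 and Casq1 rose at both steps, Cacna1s and Trdn rose from P12 to P28 and did not pass before, Sln fell from P1 to P12, and Atp2a2, Ryr1 and Casq2 passed in no comparison. A probe set was called at an adjusted p under 0.05 (limma, Benjamini-Hochberg over 45037 probe sets). From P1 to P12, 4 of 21 member probe sets rose and 1 fell, where 3.25% of all probe sets rose and 1.59% fell. From P12 to P28, 8 rose and 0 fell (limma; at an unadjusted p under 0.05, 9 rose and 1 fell), where 13.5% rose and 15.9% fell. Between P1 and P28, 10 rose and 2 fell, against 17.6% and 17.4%.

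Counted as 9 genes, 3 rose and 1 fell from P1 to P12, against 3.94% and 1.85% of all genes. For P12 to P28, 5 rose and 0 fell (limma; 0 fell also at an unadjusted p under 0.05), against 15.5% and 15.4%. For P1 to P28, 5 rose and 1 fell, against 19.9% and 16.3%. The median change of the 9 genes was 0.28 at the first step, 1.51 at the second and 2.00 over the whole span, and that of all genes was 0.02, -0.03 and -0.02. The comparisons share arrays, P12 being in both steps. The values here are from bulk samples, in which fewer cells of a type and less RNA per cell cannot be told apart.

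**Figure D1:**
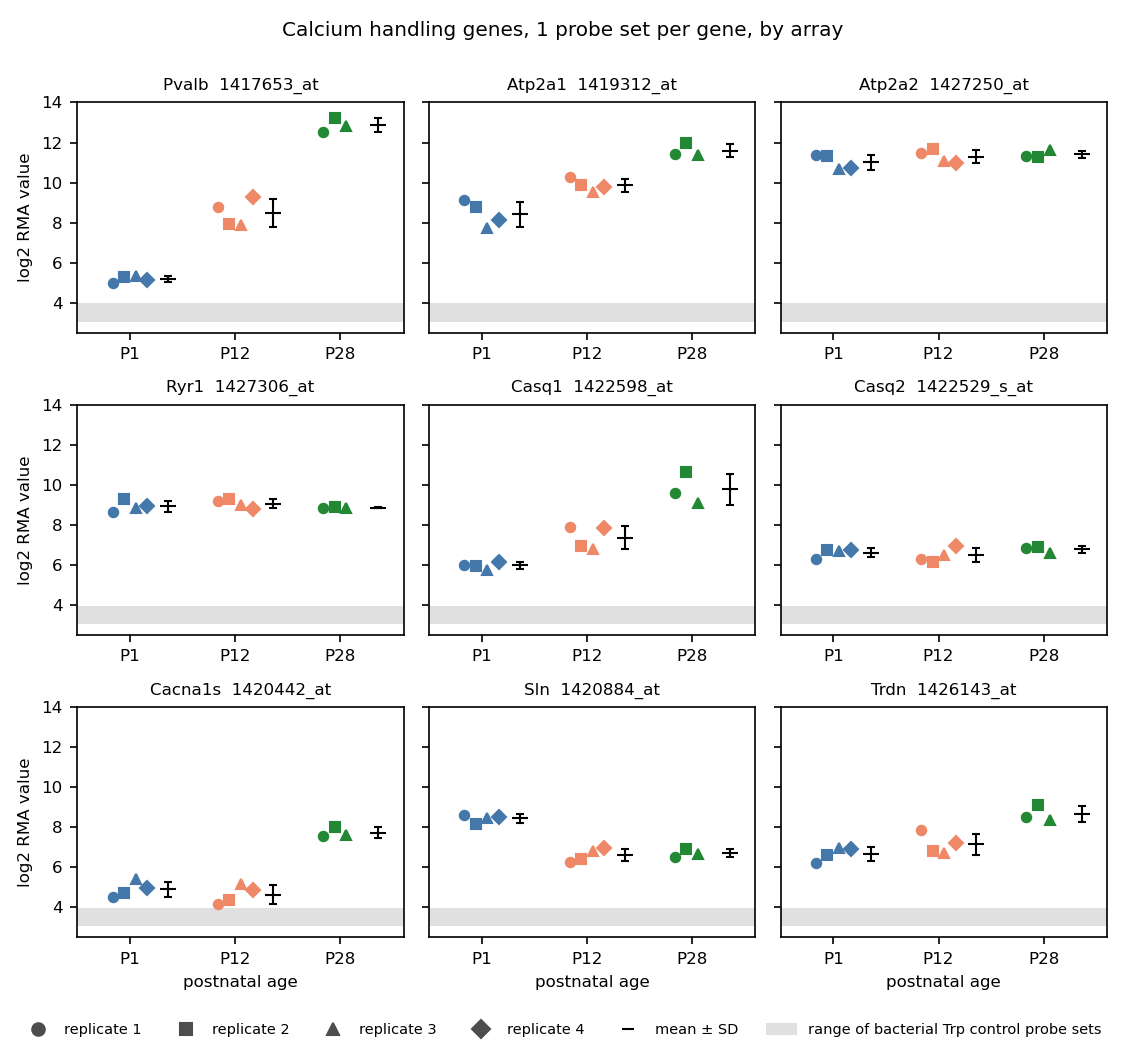
Log2 RMA value (vertical axis) of the brightest probe set of each of the 9 genes on every array, by postnatal age (horizontal axis), with the mean and SD of each group beside its points; marker shapes give the replicate number and the grey band spans the Trp control probe sets. Pvalb climbs from 4.97 to 5.34 at P1 to 12.53 to 13.24 at P28, Sln drops after P1, and Ryr1, Casq2 and Atp2a2 stay within overlapping ranges.

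Pvalb encodes parvalbumin, the soluble calcium buffer of fast fibres, and it changed most of all members. Its probe set (1417653_at) read 4.97, 5.27, 5.34 and 5.13 on the P1 arrays. The P12 arrays read 8.80, 7.90, 7.90 and 9.30, and the P28 arrays 12.53, 13.24 and 12.84. The 3 ages did not overlap: every P12 array lay above every P1 array, and every P28 array above every P12 array. Among the P12 arrays, replicates 1 and 4 read higher than replicates 2 and 3. The log2 change was 3.29 ± 0.27 (SE) from P1 to P12 (limma, adjusted p = 2.1e-05) and 4.40 ± 0.29 from P12 to P28 (adjusted p = 2.87e-07). Between P1 and P28 it was 7.69 ± 0.29 (limma, adjusted p = 1.41e-09), a 207-fold difference on the linear scale. The step from P1 to P12 was 3.23 within array set 1 and 3.36 within array set 2.

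Atp2a1 encodes SERCA1, the calcium pump of fast fibres. Its probe set (1419312_at) read 9.11, 8.76, 7.72 and 8.11 at P1, 10.27, 9.89, 9.51 and 9.76 at P12, and 11.41, 12.00 and 11.39 at P28. The ages did not overlap, and the probe set read far above the Trp controls already at P1. Within P1 and P12, replicates 1 and 2 read higher than replicates 3 and 4, the same division as in the Gapdh difference. Atp2a1 rose by 1.43 ± 0.27 from P1 to P12 (limma, adjusted p = 0.00822) and by 1.74 ± 0.29 from P12 to P28 (adjusted p = 0.000497). The difference between P1 and P28 was 3.18 ± 0.29 (limma, adjusted p = 2.26e-06), or 9.03-fold. Within array set 1 the first step was 1.14 and missed the threshold (adjusted p = 0.0678), and within array set 2 it was 1.72 (adjusted p = 0.00255).

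Atp2a2 encodes SERCA2, the pump of slow fibres and the heart and, as its SERCA2b form, of most other cells. The brightest of its 6 probe sets (1427250_at) read 11.37, 11.30, 10.67 and 10.72 at P1. It read 11.48, 11.66, 11.07 and 10.97 at P12, and 11.32, 11.29 and 11.61 at P28. All 3 ages overlapped and no comparison passed: the changes were 0.28 ± 0.19 for P12 against P1 (limma, adjusted p = 0.499), 0.11 ± 0.21 for P28 against P12 (adjusted p = 0.746) and 0.39 ± 0.21 for P28 against P1 (adjusted p = 0.169). With the Gapdh difference as a covariate, P28 stood above P12 by 0.63 (adjusted p = 0.0189) and above P1 by 0.95 (adjusted p = 0.00164) on this probe set. The call for the brightest Atp2a2 probe set therefore differed with that term, whose values do not overlap between P28 and the other ages. Taken as the mean of its 6 probe sets, Atp2a2 rose by 0.44 from P1 to P28 (limma, adjusted p = 0.0225).

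The other Atp2a2 probe sets did not move as one. From P1 to P28, 3 of the 6 rose: 1452363_a_at by 0.70 ± 0.18 (limma, adjusted p = 0.00843), 1427251_at by 0.52 ± 0.17 (adjusted p = 0.03) and the dim 1443551_at by 0.98 ± 0.17 (adjusted p = 0.000518). The last of these read 3.58 to 5.06 over all arrays, was near the Trp controls at P1, and also rose from P12 to P28, by 0.77 ± 0.17 (limma, adjusted p = 0.00374). 1416551_at changed by 0.43 ± 0.17 between P1 and P28 (adjusted p = 0.0664) and 1437797_at by -0.38 ± 0.20 (adjusted p = 0.156). With the Gapdh covariate the change of 1452363_a_at was 0.53 (adjusted p = 0.125), and without P28 replicate 3 it was 0.43. The call of 1427251_at held in 13 of 20 alternatives and was lost without P1 replicate 2 (0.47), 3 (0.49) or 4 (0.52) and without P28 replicate 3 (0.30). From P12 to P28, 1452363_a_at passed without P28 replicate 1 (0.69, adjusted p = 0.0122) and 1427251_at without P28 replicate 2 (0.53, adjusted p = 0.048), and from P1 to P28, 1416551_at passed without P1 replicate 1 (0.50) or P28 replicate 2 (0.54). None of the 6 probe sets passed from P1 to P12, where the changes ran from 0.05 to 0.32, and 0 passed there at an unadjusted p under 0.05 (limma).

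Sln encodes sarcolipin, a small membrane protein that inhibits the SERCA pumps, and it is the member that fell. Its brighter probe set (1420884_at) read 8.62, 8.14, 8.45 and 8.51 at P1. It read 6.26, 6.41, 6.78 and 6.94 at P12, and 6.51, 6.89 and 6.67 at P28. Every P12 and P28 array lay below every P1 array, and P12 and P28 overlapped. Sln fell by 1.83 ± 0.16 from P1 to P12 (limma, adjusted p = 4.37e-05), and P28 differed from P12 by 0.09 ± 0.18 (adjusted p = 0.748). Between P1 and P28 it fell by 1.74 ± 0.18 (limma, adjusted p = 5.83e-06). The other probe set (1420883_at) read 3.62 to 4.31, near the Trp controls. The mean of both probe sets fell by 0.97 from P1 to P12 and by 1.06 from P1 to P28. The dim probe set alone fell by 0.38 ± 0.14 from P1 to P28 (limma, adjusted p = 0.0481), a call that held in 7 of 19 alternatives. That call was lost without P1 replicate 1 (-0.35), 2 (-0.34) or 4 (-0.38), without P12 replicate 1 or 4 (-0.38 for both), and without P28 replicate 1 (-0.44), 2 (-0.30) or 3 (-0.39).

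**Figure D2:**
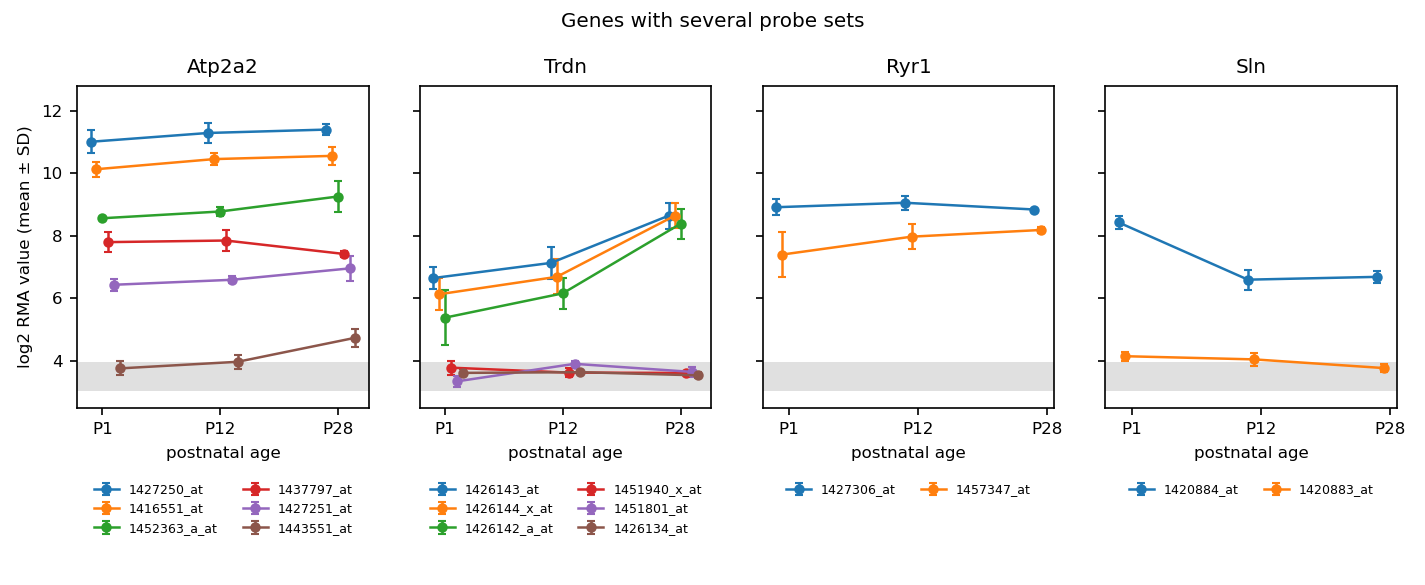
Mean log2 RMA value with SD (vertical axis) of every probe set of Atp2a2, Trdn, Ryr1 and Sln at each postnatal age (horizontal axis), 1 line per probe set, with the Trp control range in grey. The 3 brighter Trdn probe sets reach 8.39 to 8.65 at P28 and the 3 dimmer ones stay in the control range; the brightest Atp2a2 line runs from 11.01 at P1 to 11.40 at P28.

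Cacna1s encodes the pore-forming, voltage-sensing subunit of the skeletal muscle L-type calcium channel. Its probe set (1420442_at) read 4.53, 4.69, 5.39 and 4.96 at P1, 4.15, 4.34, 5.17 and 4.85 at P12, and 7.56, 8.02 and 7.58 at P28. P1 and P12 overlapped, and every P28 array was above all of them. The P1 and P12 values, 4.15 to 5.39, were above the Trp controls but below the array medians. Differences that involve these dim values can be understated. At both earlier ages replicates 1 and 2 read lower than replicates 3 and 4. From P1 to P12 the change was -0.26 ± 0.23 (limma, adjusted p = 0.618). P28 was above P12 by 3.09 ± 0.25 (limma, adjusted p = 1.33e-06) and above P1 by 2.83 ± 0.25 (adjusted p = 1.65e-06). With the Gapdh difference as a covariate these 2 changes were 2.51 and 2.21.

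Ryr1 encodes the release channel that the voltage sensor opens. Its brighter probe set (1427306_at) read 8.65, 9.27, 8.84 and 8.92 at P1, 9.19, 9.28, 8.98 and 8.79 at P12, and 8.84, 8.87 and 8.82 at P28. The ages overlapped and no change passed: 0.14 ± 0.15 at the first step (limma, adjusted p = 0.685), -0.22 ± 0.16 at the second (adjusted p = 0.337) and -0.07 ± 0.16 between P1 and P28 (adjusted p = 0.753). The second probe set (1457347_at) read 7.20, 6.50, 7.83 and 8.09 at P1, 7.37, 8.19, 8.08 and 8.26 at P12, and 8.09, 8.30 and 8.18 at P28. Its P1 arrays were the most spread, with replicates 1 and 2 lowest, and every P28 array lay just above them. Its change between P1 and P28 was 0.79 ± 0.31 (limma, adjusted p = 0.0637). It passed in 5 of 20 alternatives, among them without P1 replicate 3 (0.93) or 4 (1.01) and without P12 replicate 1 (0.79). With the Gapdh covariate it was 0.18.

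Within each array, the difference between Cacna1s and Ryr1 was taken relative to its mean at P1, which removes a shift common to a whole array. It was -0.40 ± 0.65 (SD) at P12 and 2.90 ± 0.24 at P28. The Cacna1s probe set thus gained on the brighter Ryr1 probe set at P28 on every array (2.75 to 3.18). The second Ryr1 probe set, which changed by 0.79 between P1 and P28, was not used, and the mean gain over it would be smaller. The same difference between Atp2a1 and Atp2a2 was 1.15 ± 0.28 at P12 and 2.79 ± 0.47 at P28. Only the brightest Atp2a2 probe set was used, with a change of 0.39 between P1 and P28. The other Atp2a2 probe sets changed by -0.38 to 0.98 over that span, so the mean gain depends on the one chosen. For Casq1 over Casq2 the difference was 1.53 ± 0.53 and 3.65 ± 0.64. These are unequal changes of paired probe sets, given without a test, and they do not say which transcript is more abundant.

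Casq1 encodes the main calsequestrin of skeletal muscle, which holds calcium inside the store. Its probe set (1422598_at) read 6.00, 5.97, 5.75 and 6.16 at P1, 7.89, 6.95, 6.78 and 7.83 at P12, and 9.60, 10.62 and 9.10 at P28. The ages did not overlap, and P12 replicates 1 and 4, the arrays with the higher Pvalb values, were again above replicates 2 and 3. Casq1 rose by 1.39 ± 0.30 from P1 to P12 (limma, adjusted p = 0.0191), by 2.41 ± 0.33 from P12 to P28 (adjusted p = 0.000109) and by 3.81 ± 0.33 in all (adjusted p = 1.4e-06). The first step lost its call without P1 replicate 3 (1.32, adjusted p = 0.0629), P12 replicate 1 (1.22, 0.0638) or P12 replicate 4 (1.24, 0.0638), and within array set 1 (1.44, 0.0893).

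Casq2, the calsequestrin of the heart and of slow fibres, moved little. Its probe set (1422529_s_at, a type that can match several transcripts) read 6.30, 6.74, 6.67 and 6.73 at P1. It read 6.30, 6.16, 6.49 and 6.96 at P12, and 6.82, 6.90 and 6.59 at P28. The ages overlapped and no comparison passed (limma, adjusted p = 0.761, 0.261 and 0.539 in the order used above). Without P12 replicate 4, the highest Casq2 array, P28 exceeded P12 by 0.45 (adjusted p = 0.0451).

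Trdn encodes triadin, which ties calsequestrin to the release channel. Its brightest probe set (1426143_at) read 6.18, 6.58, 6.93 and 6.91 at P1, 7.83, 6.81, 6.69 and 7.21 at P12, and 8.48, 9.12 and 8.34 at P28. P1 and P12 overlapped and every P28 array was above both. The first step was 0.49 ± 0.25 (limma, adjusted p = 0.329), the second a rise of 1.51 ± 0.27 (adjusted p = 0.000912), and the whole span a rise of 2.00 ± 0.27 (adjusted p = 7.53e-05).

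The 1426144_x_at and 1426142_a_at probe sets of Trdn are annotated to the same mRNA record as 1426143_at and are not independent of it. From P12 to P28 they rose by 1.95 ± 0.31 (limma, adjusted p = 0.000383) and 2.23 ± 0.40 (adjusted p = 0.000908). At P1 the 1426142_a_at probe set read 4.66 and 4.63 in replicates 1 and 2 but 6.40 and 5.83 in replicates 3 and 4. With the Gapdh covariate its rise from P12 to P28 was 1.40 (adjusted p = 0.0282). The remaining Trdn probe sets (1451801_at, 1451940_x_at and 1426134_at), annotated to other records, read 3.12 to 4.00 on all arrays, at about the Trp control range. Of these, 1451801_at rose by 0.56 ± 0.12 from P1 to P12 (limma, adjusted p = 0.0176), a call lost without P12 replicate 4 (0.54, 0.0526) and within either array set. The mean over all 6 probe sets, which takes in the dim ones, rose by 0.89 from P12 to P28. Between P1 and P28 that mean rose by 1.26.

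**Figure D3:**
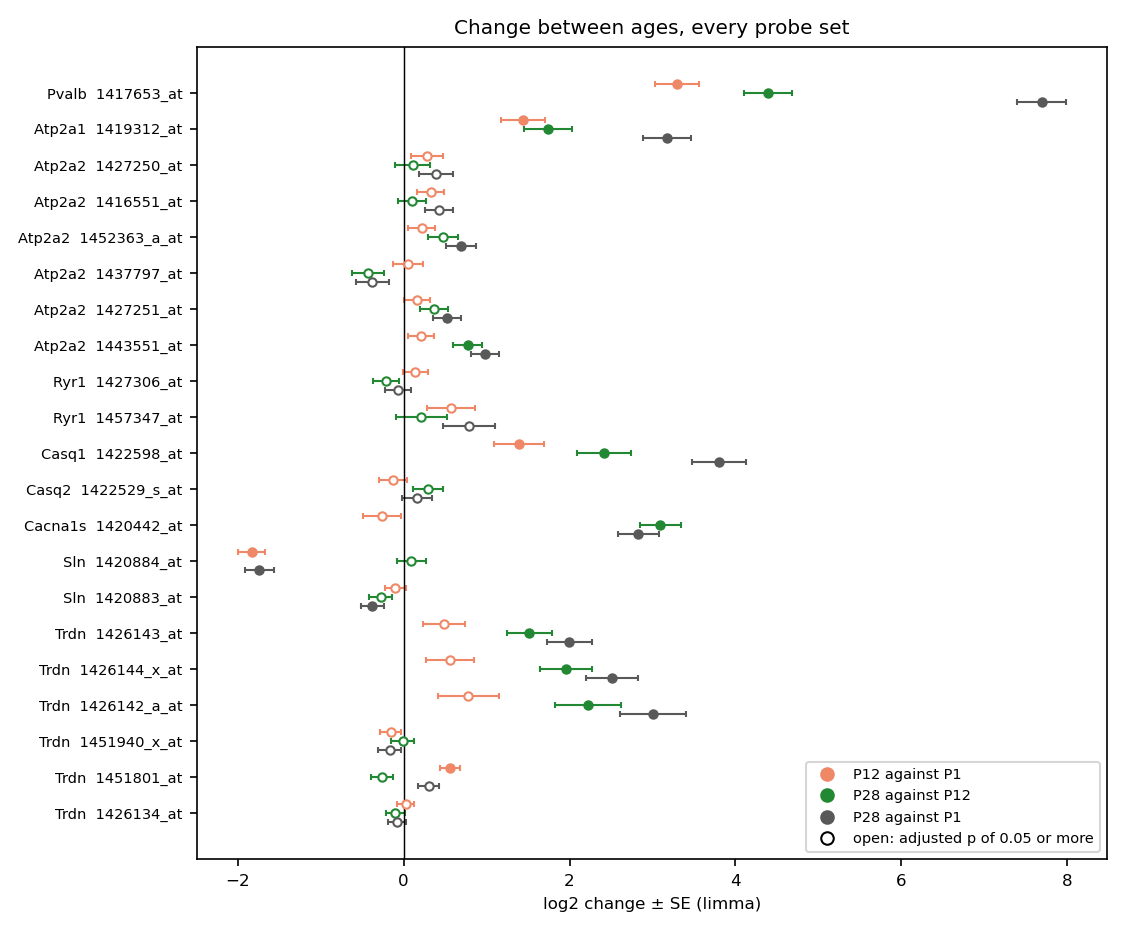
Log2 change with its SE from limma (horizontal axis) for each of the 21 probe sets (vertical axis) in the 3 comparisons, with open symbols for an adjusted p of 0.05 or more. Pvalb reaches 7.69 between P1 and P28, Cacna1s and the brighter Trdn probe sets have filled symbols for P28 and open ones for P12 against P1, and the brighter Sln probe set is the one with large negative changes (-1.83 and -1.74).

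Markers of fast contractile fibres rose in part from P1 to P12, with a median change of 0.07, and all rose from P12 to P28. Genes of other marker lists below rose at the second step too. Over all genes, 3.94% rose and 1.85% fell at the first step, and 15.5% and 15.4% at the second. These shares stand beside the counts of every marker list. Of 13 fast fibre genes, 5 rose and 0 fell from P1 to P12, and all 13 rose from P12 to P28 (limma; 0 fell at either step also at an unadjusted p under 0.05). Their mean on an array was 8.15 to 8.48 at P1, 8.31 to 9.44 at P12 and 11.26 to 11.81 at P28. Myh4, the fastest myosin heavy chain, averaged 3.73 at P1, within the Trp control range, 7.06 at P12 and 11.30 at P28. Its first step was 1.71 by the mean of its probe sets. Within array set 1 that step was 2.99 and missed the threshold (limma, adjusted p = 0.0861). Ckm, the muscle creatine kinase, averaged 8.72, 8.57 and 12.53, with a first step of -0.14 ± 0.31 (limma, adjusted p = 0.876) and a second of 3.96 ± 0.34 (adjusted p = 2.32e-06). The count of 5 at the first step was 3 without P1 replicate 3 and 2 without P1 replicate 4, P12 replicate 1 or P12 replicate 4. It was 1 and 3 within array sets 1 and 2.

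Of 15 slow fibre and heart genes, 0 rose and 2 fell from P1 to P12 (limma; 1 higher and 3 lower at an unadjusted p under 0.05), and 9 rose and 0 fell from P12 to P28 (11 higher and 3 lower at an unadjusted p under 0.05). Their array means were 6.73 to 6.92 at P1, 6.45 to 6.83 at P12 and 7.38 to 7.81 at P28. In these Myh6, Myl7 and Nppa stayed in the control range at P1 and P12. Both myosins of immature fibres, Myh3 and Myh8, fell at each step, as Sln did at the first. Of 6 genes of differentiating myocytes, 2 rose at the first step, and 1 rose and 1 fell at the second. Myog, which drives differentiation, is 1 of the 2 and averaged 11.52, 12.42 and 11.89. Its first step of 0.90 lost its call without P1 replicate 3 (0.76) or 4 (0.85) and without P12 replicate 1 (0.91) or 4 (0.77), and within array set 1 (0.67).

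Markers of cells outside the muscle lineage also rose at P28. All 5 endothelial genes rose from P12 to P28, with array means of 5.69 to 6.40 at P1, 5.93 to 6.73 at P12 and 8.05 to 8.80 at P28. Of the macrophage genes 2 of 5 rose (6.35 to 6.79 at P12, 7.67 to 8.56 at P28), of the fibro-adipogenic genes 3 of 4 (9.10 to 9.38, then 10.53 to 11.38), and of the smooth muscle and pericyte genes 3 of 5 (8.23 to 8.79, then 9.40 to 9.53). Of 2 measured Schwann cell genes 0 rose (limma; 1 at an unadjusted p under 0.05), and of 5 neuron genes 1 rose, with Snap25 in the control range at every age. From P1 to P12, 2 smooth muscle and pericyte genes rose and 1 fell, 1 macrophage gene and 1 fibro-adipogenic gene fell, and 0 of the 5 endothelial genes passed (limma; 0 at an unadjusted p under 0.05). Of the Schwann cell and neuron genes 0 passed there (limma; 1 neuron gene lower at an unadjusted p under 0.05). The part of fibres, of these other cells and of RNA quality in the changes of the calcium genes was not tested.

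For each member whose age means spanned over 1 log2 unit, the genes with the closest profile were found over the 11 arrays, by the root mean square difference of log2 values after each gene's mean was removed. The arrays share their groups, so this likeness describes age and array together and no test was made. Pvalb lay closest to Myh4 (0.35), at a distance from the next genes, Hemgn (1.07) and Gal (1.10). Casq1 lay closest to Mb, the oxygen-binding myoglobin (0.34), then Plxnd1 (0.36) and Ddit4l (0.41). Cacna1s lay closest to Cox8b, a muscle subunit of cytochrome c oxidase (0.18), then Eef1a2, the muscle and neuron form of an elongation factor (0.32), and Igk (0.33).

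Only the profile of Pvalb was led by a contractile gene. Atp2a1 lay closest to Sox17, an endothelial transcription factor (0.31), Gem (0.31) and Rgs5, a pericyte marker (0.40). Trdn lay closest to Gimap4 (0.23), Atp1b2 (0.26) and Gm15417 (0.27), and Sln to Col17a1 (0.26), Reps2 (0.32) and Miga1 (0.36). Atp2a1 and Casq1 were at 0.52 from each other. Many genes share a step between ages, so a small distance is not particular to a pair.

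**Figure D4:**
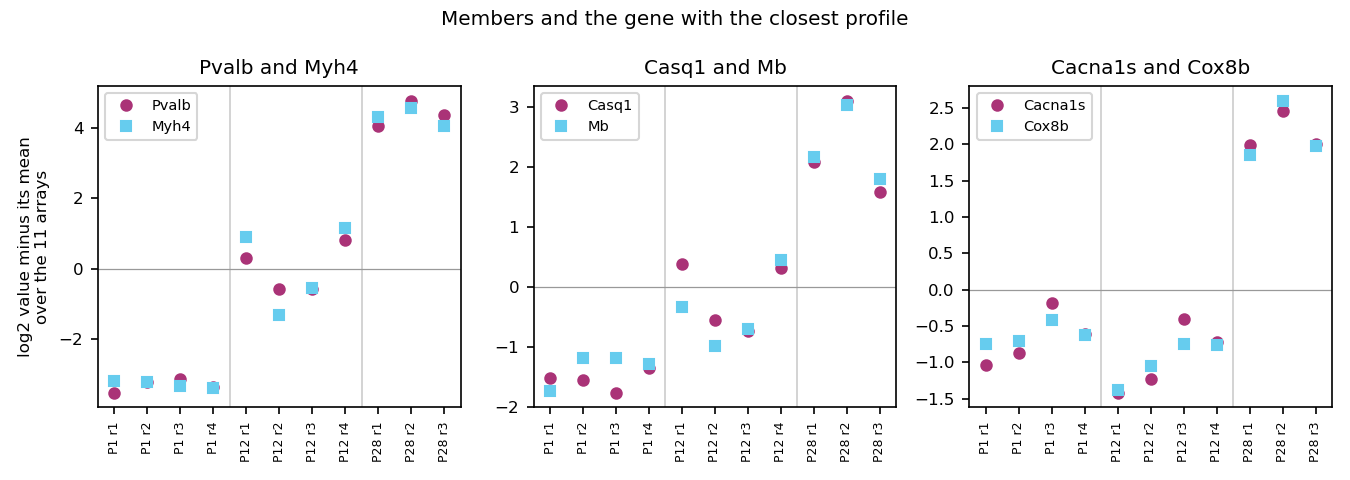
Log2 value minus the gene's mean over the 11 arrays (vertical axis) on each array (horizontal axis) for Pvalb, Casq1 and Cacna1s and for the gene closest to each, with the ages divided by vertical lines. Myh4 follows Pvalb within P12 too, both being higher in replicates 1 and 4 than in 2 and 3, and Cox8b follows Cacna1s with a root mean square difference of 0.18.

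Other genes of calcium handling were taken from 7 lists, of which 77 of 87 genes were analysed here. By the brightest probe set, 4 rose and 2 fell from P1 to P12, against 3.94% and 1.85% of all genes, so these counts are near those shares. From P12 to P28, 19 rose and 3 fell, against 15.5% and 15.4%. Between P1 and P28, 27 rose and 8 fell, against 19.9% and 16.3%. The same shares of all genes stand beside the counts of the single lists below. Median changes of the 77 genes were 0.06, 0.15 and 0.20, against the 0.02, -0.03 and -0.02 of all genes. The first count is unsettled: 2 rose without P1 replicate 2, P1 replicate 3, P12 replicate 1 or P12 replicate 4, 1 rose without P1 replicate 4, and 10 rose with the array set as a block. The 2 that fell were 0 to 2 with 1 array left out. Of the lower counts at P28, the 3 against P12 was 1 by the mean of probe sets or without _x_at and _s_at probe sets, and the 8 against P1 was 5 without P28 replicate 2 or 3, 4 by the mean of probe sets and 3 with the Gapdh covariate.

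Among triad structure genes, 1 of 17 rose and 1 fell from P1 to P12, and 7 rose and 1 fell from P12 to P28. In the second step Sypl2, which encodes a mitsugumin of the triad, rose by 1.46 ± 0.38 (limma, adjusted p = 0.00978), Tmem38a, a counter-ion channel of the store, by 1.44 ± 0.21 (adjusted p = 0.00019), and Cav3, the muscle caveolin, by 1.43 ± 0.29 (adjusted p = 0.00213). Fkbp1a, a subunit bound to the release channel, fell by 0.46 ± 0.14 (adjusted p = 0.0283). The count of 7 was 4 without P28 replicate 2 and 3 with the Gapdh covariate. Sypl2 was at 1.07 (adjusted p = 0.0549) without P28 replicate 2 and at 0.54 by the mean of its probe sets, and Cav3 at 0.88 (adjusted p = 0.0641) with that covariate. Fkbp1a was at -0.18 (adjusted p = 0.438) with that covariate and -0.04 (adjusted p = 0.795) by the mean of its probe sets, and it lost its call without P12 replicate 1 (-0.41) or 2 (-0.40) and P28 replicate 1 (-0.43) or 3 (-0.43). In the first step Asph rose by 0.83 ± 0.18 (limma, adjusted p = 0.0188) but was at 0.73 (adjusted p = 0.0657) without P1 replicate 4 and at 0.19 (adjusted p = 0.243) by the mean of its probe sets. Mtm1 fell there by 0.74 ± 0.19 (adjusted p = 0.0455), a call lost on leaving out any P1 or P12 array or P28 replicate 3 (-0.79 to -0.65), with the replicate block (adjusted p = 0.0562) and by the mean of its probe sets (-0.42).

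Among 11 other pumps and exchangers, Atp2a3, the SERCA3 pump known from endothelial and blood cells, rose at both steps. It averaged 5.92 ± 0.31 (SD) at P1, 7.89 ± 0.19 at P12 and 10.52 ± 0.16 at P28, with changes of 1.98 ± 0.16 (SE; limma, adjusted p = 1.8e-05) and 2.63 ± 0.17 (adjusted p = 2.47e-07). The mean of its probe sets rose by 0.97 at the first step. Atp2b4, a pump of the plasma membrane, fell by 2.11 ± 0.18 from P12 to P28 (limma, adjusted p = 2.04e-06) to 3.74, within the Trp control range. Mrln, which like sarcolipin inhibits SERCA, fell by 0.71 ± 0.17 from P1 to P12 (adjusted p = 0.029). That call was lost without P1 replicate 1 (-0.70), 2 (-0.62) or 4 (-0.74) and P12 replicate 1 (-0.61), 3 (-0.67) or 4 (-0.70).

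Of 9 further calcium channel subunits, 0 passed from P1 to P12 (limma; 1 lower at an unadjusted p under 0.05). Cacng1, the gamma subunit that goes with Cacna1s, rose by 0.80 ± 0.22 from P12 to P28 (limma, adjusted p = 0.0146), and was at 0.61 (adjusted p = 0.0798) without P28 replicate 2 and 0.33 with the Gapdh covariate. Of 11 other release and entry channels, 0 passed in the first step (limma; 1 higher at an unadjusted p under 0.05) and 2 rose in the second. These were the store-operated channels Orai3, by 0.91 ± 0.18 (adjusted p = 0.0019), and Orai1, by 0.69 ± 0.19 (adjusted p = 0.0136). Orai1 was at 0.56 (adjusted p = 0.0695) without P28 replicate 2 and at -0.08 by the mean of its probe sets.

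Of 7 other buffers and sensors, 0 passed in the first step (limma; 2 higher at an unadjusted p under 0.05). S100a1, a calcium sensor of the muscle store, rose by 2.31 ± 0.19 from P12 to P28 (limma, adjusted p = 1.85e-06) and Sri, sorcin, by 1.01 ± 0.12 (adjusted p = 5.13e-05). Sri was at 0.29 (adjusted p = 0.0607) by the mean of its probe sets. Of 6 genes of mitochondrial calcium uptake, Letm1 (0.64 ± 0.17, adjusted p = 0.0499) and Smdt1 (0.57 ± 0.14, adjusted p = 0.0354) rose in the first step by limma. Both lost the call on leaving out any P1 array or P12 replicate 1 or 4 (0.52 to 0.67 for Letm1 and 0.43 to 0.60 for Smdt1), and Letm1 also without P28 replicate 2 (0.64) and with the replicate block (adjusted p = 0.0678). By the mean of its probe sets Letm1 was at 0.34, and after quantile normalization Smdt1 was at 0.36. In the second step 0 of 6 passed (limma; 1 higher at an unadjusted p under 0.05).

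Of 16 genes of calcineurin, the NFAT factors it activates and the calmodulin kinases, 0 passed from P1 to P12 (limma; 3 higher and 2 lower at an unadjusted p under 0.05). From P12 to P28, 6 rose and 1 fell. Ppp3cc, a catalytic subunit of calcineurin, rose by 1.98 ± 0.13 (limma, adjusted p = 2.87e-07), Nfatc1 by 1.33 ± 0.24 (adjusted p = 0.000872) and Nfatc2 by 1.22 ± 0.22 (adjusted p = 0.000873). Nfatc3 fell by 1.04 ± 0.13 (adjusted p = 4.86e-05), a change of -0.35 (adjusted p = 0.0568) by the mean of its probe sets. The same mean gave 0.93 for Ppp3cc and 0.77 for Nfatc2. Rcan1, a calcineurin inhibitor that NFAT induces, rose by 1.70 ± 0.20 between P1 and P28 (adjusted p = 2.08e-05).

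**Figure D5:**
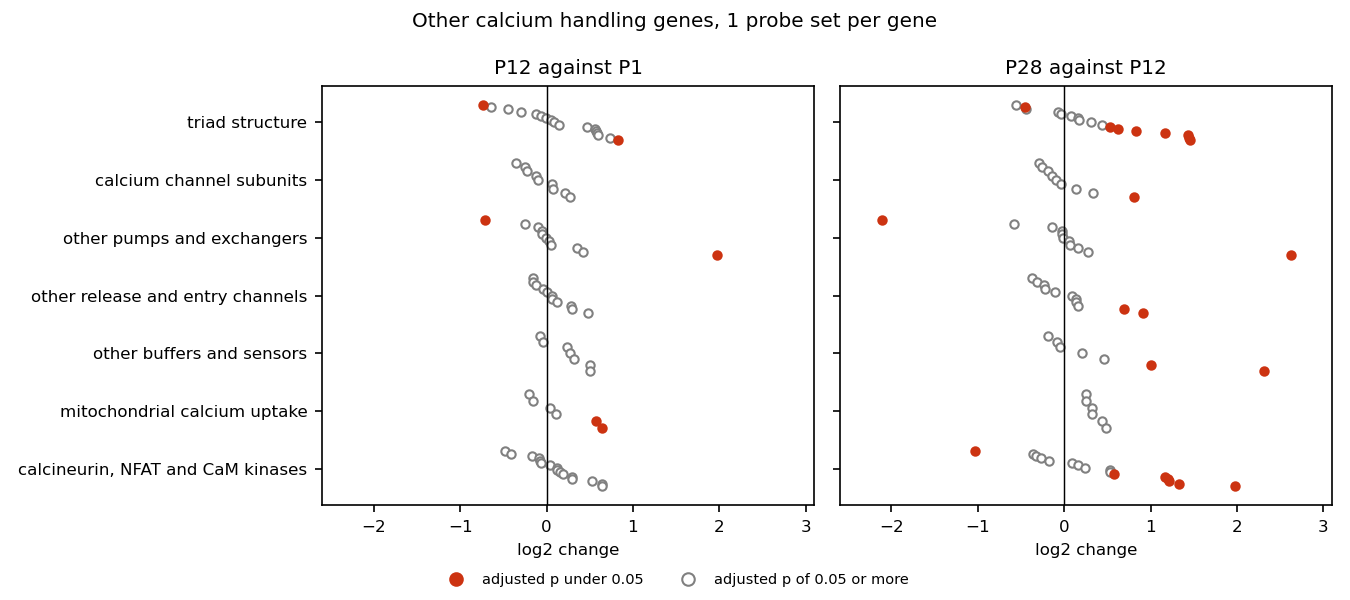
Log2 change (horizontal axis) of each of the 77 measured genes of the 7 other calcium lists (vertical axis), from P1 to P12 on the left and from P12 to P28 on the right, filled where the adjusted p was under 0.05. The filled points are 4 genes that rose and 2 that fell on the left, and 19 and 3 on the right; Atp2a3 is the rightmost in both panels, at 1.98 and 2.63.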

How the data were processed

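Gene expression was measured on 11 Affymetrix Mouse430_2 arrays of biotin-labelled cDNA. The authors deposited log2 values per probe set, and the submitters' processing notes name RMA, affy and Affymetrix Expression Console, with no versions or roles. RMA values of dim probe sets contain background signal, so their differences can be understated. The values were used without a further transformation, 0 columns were left out, and the titles gave each array's age. Of 45101 probe sets, 34958 carried 1 gene symbol, 932 several and 9211 none in the supplied platform annotation. The 64 control probe sets were not tested. No probe set with several symbols held a member.

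All 45037 other probe sets were fitted together on the 3 ages with limma 3.58.1 in R 4.3.3 (lmFit on group means, contrasts, eBayes; residual degrees of freedom 8, prior 5.82). The test was two-sided, with Benjamini-Hochberg adjustment over all of them. Errors are SE for changes and SD for levels. In a simulation that kept each probe set's residual spread, the test recovered 83.6% of changes of 1 log2 unit in P12 against P1, 79.1% in P28 against P12 and 71.6% in P28 against P1, each of 67 changed probe sets among 45037 tested. Of 67 changed by 0.5, 7.5% were recovered in P12 against P1. The share was 19.4% for P28 against P12. Far more probe sets passed in the data: 6068 rose and 7161 fell from P12 to P28, and 7917 and 7836 from P1 to P28. The adjustment is stricter where few probe sets change, so the simulated shares can understate recovery in the comparisons with P28.

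Members and lists were chosen with earlier results of these data known. The text names every member probe set, up to 3 genes per other calcium list, direction and comparison by size of change, Myh4, Ckm, Pax7 and Myog among the markers, and the 3 closest profiles of each member spanning over 1 log2 unit; for the other calcium lists, P28 against P1 is given mainly as counts. Some listed genes are not analysed here.

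Same-numbered P1 and P12 arrays deviated together (correlations of 0.14 to 0.31, over 0.1 for 4 of 4 pairs). Differently numbered arrays of the same array set did so too (0.14 to 0.25), so these correlations do not show a pairing by number. The main fit used neither the numbers nor the array set, and each served as a block in alternatives. Same-numbered arrays did not deviate together for P28 (0 of 3 pairs over 0.1 with either age). Alternatives were median centring, quantile normalization, 1 probe set or the mean per gene, filters, array weights, eBayes options, fits of 2 ages, blocks, the Gapdh covariate and leaving out each array. Applying them to the other calcium lists, fast fibre markers and named genes was chosen after seeing the data.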

Additional observations from a re-analysis of the deposited data

Results flagged for a closer look

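In 3 of 42 groups of 4 arrays, 1 array stood apart from the others by Dixon's criterion, which chance reaches in about 1 group in 20. On the Atp2a2 probe set 1452363_a_at, P12 replicate 2 read 8.55 and the other P12 arrays 8.83 to 8.88. On the Casq2 probe set 1422529_s_at, P1 replicate 1 read 6.30 and the other P1 arrays 6.67 to 6.74. On the dim Trdn probe set 1426134_at, P1 replicate 4 read 3.78 and the other P1 arrays 3.54 to 3.57.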

How the results depend on the processing

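Over the alternatives, 1304 of 1353 changes of member probe sets kept their direction where called and their side of the threshold, 28 lost a call, 21 gained one, 0 called changes reversed and 32 uncalled ones changed sign. The numbers of member probe sets that rose from P1 to P12 were 1 within array set 1 and 2 to 4 with 1 array left out, and 1 fell in each of these. From P12 to P28, 5 rose with 1 probe set per gene and 5 when each gene's probe sets were averaged, both over fewer features by construction, 8 to 9 rose and 0 fell with 1 array left out, and 1 fell with the replicate block (Atp2a2 1437797_at, -0.53, adjusted p = 0.0214). Between P1 and P28, 5 and 6 rose under those per-gene settings and 9 to 11 with 1 array left out. The number that fell there was 1 with median centring, 1 probe set per gene, the mean per gene, no dim probe sets or the Gapdh covariate, and 1 to 2 with 1 array left out. From P1 to P12 the replicate block changed no member call and ended those of Letm1 and Mtm1 among the other genes named. Among other calcium genes, Orai1 from P12 to P28 reversed to -0.085 (adjusted p = 0.777) when its probe sets were averaged; the cause was not tested. Normalization moved the median of all probe sets by at most 0.04. Probe sets within the Trp control range limit what can be read of Trdn, Sln and Atp2a2 there.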
